A study of Mus musculus with 35 samples.

Results

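Triglyceride synthesis and lipid droplet formation were followed in interscapular brown adipose tissue (iBAT) through 10 genes, Gpam, Agpat2, Lpin1, Dgat1, Dgat2, Bscl2, Fitm1, Fitm2, Cidea and Cidec. These genes were taken by name from a table of read counts for 55421 genes, and all 10 were found in it. The tissue came from male C57BL/6J mice aged 9 to 10 weeks, without transgene or drug, and each of the 35 mice gave its own library. Controls (room temperature, RT) stayed in the colony at 24 °C, and the other 6 groups were kept at 6 °C for 6 hours or for 1, 2, 3, 4 or 5 days, with 5 mice in each of the 7 groups. The cold groups also lived alone and without a nest, so that the effects of temperature and of housing cannot be told apart. The question asked of the data was how transcripts for making and storing triglyceride followed the length of cold exposure.

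Brown adipocytes store triglyceride in many small droplets and burn the fatty acids released from them to make heat. Triglyceride is built on glycerol-3-phosphate by stepwise addition of fatty acyl chains: GPAT1 (from Gpam) adds the first chain at the mitochondrial outer membrane, AGPAT2 adds the next to give phosphatidic acid, the phosphatase lipin 1 removes the phosphate, and DGAT1 or DGAT2 adds the last chain in the endoplasmic reticulum. Neutral lipid then gathers between the leaflets of that membrane, where seipin (from Bscl2) and the FIT proteins (from Fitm1 and Fitm2) act in droplet formation and budding, and the CIDE proteins on the droplet surface move lipid from smaller to larger droplets.

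In GRCm38, with the GENCODE vM21 annotation, Gpam (ENSMUSG00000024978) lies on the minus strand at chr19:55067268-55127238, Agpat2 (ENSMUSG00000026922) on the minus strand at chr2:26593057-26604417 and Lpin1 (ENSMUSG00000020593) on the minus strand at chr12:16535669-16610966. Dgat1 (ENSMUSG00000022555) lies on the minus strand at chr15:76502015-76511953 and Dgat2 (ENSMUSG00000030747) on the minus strand at chr7:99153658-99182719. The sequences of 250 bases before the transcription start are shown for the 3 early enzymes of the pathway, which differed in how long they stayed above RT, with the start annotated inside Gpam as well as its outermost start. Windows were matched by symbol for 7 of the 10 genes in RefSeq on GRCm38.p6, and those of Dgat1, Dgat2 and Cidea were not analysed here. Capitals mark matches, searched on both strands, to the nuclear receptor half-site (letters AGGTCA), to the CRE half-site of cyclic AMP responsive promoters (letters TGACG) and to the GC box (letters GGGCGG), and each sequence reads 5′ to 3′ in the direction of the gene.
Gpam, outermost start, chr19:55127239-55127488, minus strand: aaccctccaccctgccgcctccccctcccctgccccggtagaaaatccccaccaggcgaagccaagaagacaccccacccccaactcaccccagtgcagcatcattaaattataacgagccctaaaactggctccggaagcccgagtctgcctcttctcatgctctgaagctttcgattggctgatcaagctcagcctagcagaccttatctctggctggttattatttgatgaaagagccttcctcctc
Gpam, inner start, chr19:55099478-55099727, minus strand: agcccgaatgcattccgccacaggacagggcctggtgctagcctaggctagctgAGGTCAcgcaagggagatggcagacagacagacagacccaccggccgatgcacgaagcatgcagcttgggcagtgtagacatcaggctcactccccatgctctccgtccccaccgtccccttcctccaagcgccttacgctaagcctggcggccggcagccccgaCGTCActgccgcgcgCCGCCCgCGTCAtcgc
Agpat2, chr2:26604418-26604667, minus strand: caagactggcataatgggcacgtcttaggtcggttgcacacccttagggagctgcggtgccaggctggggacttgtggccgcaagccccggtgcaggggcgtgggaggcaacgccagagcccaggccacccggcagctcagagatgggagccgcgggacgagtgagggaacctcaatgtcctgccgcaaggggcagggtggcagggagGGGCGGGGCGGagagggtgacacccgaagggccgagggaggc
Lpin1, chr12:16610967-16611216, minus strand: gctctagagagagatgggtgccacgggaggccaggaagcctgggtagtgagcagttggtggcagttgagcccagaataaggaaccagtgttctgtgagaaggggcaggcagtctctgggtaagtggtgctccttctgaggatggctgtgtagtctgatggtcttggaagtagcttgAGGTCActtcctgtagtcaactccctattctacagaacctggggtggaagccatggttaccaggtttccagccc
Over all 32851 windows of this length in the table, the nuclear receptor half-site was found in 14.02%, the CRE half-site in 17.8% and the GC box in 32.7%. The outermost Gpam window held none of these motifs, whereas the inner one held a nuclear receptor half-site 196 bases before the start, CRE half-sites at 31 and 9 bases and a GC box at 16 bases, with no overlap among them. A stretch just after the inner start was not found in any GENCODE transcript of Gpam, while those after the other starts shown were found in transcripts of their genes. Agpat2 held a pair of GC boxes, at 42 and 37 bases, which share a base. Lpin1 held a nuclear receptor half-site at 74 bases. A match describes the letters only.

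Libraries held between 3846016 and 6047247 counts, of which mitochondrially encoded genes took 33.6 to 46.2% and the gene Gm42418 took 7.81 to 16.3%, so that 1 read was worth 0.151 to 0.289 CPM (counts scaled to a common library total with TMM factors, the unit of every level given here). Of 8 brown adipocyte markers, 8 had counts in every group, and their summed level ran from 11554 to 22797 CPM over the mice. Other tissue was present in varying amounts. The sum of 8 skeletal muscle markers ran from 2.58 to 1236 CPM, with RT between 81.4 and 1029 CPM, and Ckm, Mylpf, Tnnt3, Tnnc2 and Myh1 were each at 0 in 1 to 3 of the mice. Sums of 3 B cell markers were at most 1.98 CPM. The kit reads the 3′ end of polyadenylated transcripts. Levels are compared between groups for 1 gene, not between genes, and sums or ratios over several genes are likewise compared between groups.

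Each cold group was compared with the same 5 RT mice by edgeR's quasi-likelihood test on TMM-scaled counts, and a gene was called at a Benjamini-Hochberg adjusted p threshold of 0.05 over all genes tested. In every comparison 9 of the 10 genes could be tested, since Fitm1 had too few counts. At 6 hours, 3 of them were called higher, where 21.5% of all genes tested were, and 1 was called lower, against 21.0% of all genes. At 1 day the 9 genes gave 6 higher (18.9% of all genes) and 2 lower (17.8%), and at 2 days 4 higher (16.4%) and 2 lower (14.7%). At 3 days 3 were higher (18.3%) and 2 lower (15.5%), at 4 days 4 were higher (19.4%) and 2 lower (18.6%), and at 5 days 4 were higher (20.2%) and 2 lower (18.6%). The median log2 fold change of the 9 genes was 0.15 at 6 hours, 0.61 at 1 day and 0.14 at 5 days, and that of all genes was −0.027, −0.018 and −0.017. In a test for any difference among the 7 groups, 9 of the 9 were called, with adjusted p from 1.6e-14 for Dgat1 to 0.0116 for Cidea, and 60.4% of all 12077 genes were called by the same test.

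Scaling decided part of these counts. With library size only, in place of TMM factors, the split of all calls moved from 2280 higher and 2225 lower to 1342 and 3399 at 6 hours, and from 2014 and 1901 to 1140 and 3218 at 1 day. It moved from 1748 and 1565 to 931 and 2776 at 2 days, from 1982 and 1674 to 1339 and 2430 at 3 days, from 2140 and 2056 to 1440 and 2670 at 4 days and from 2167 and 1998 to 1194 and 3347 at 5 days. The median of all genes was then between −0.25 and −0.15 in these 6 comparisons. No member that was called under TMM changed direction under that scaling, although some calls of small size were lost and others gained, as given below for each gene.

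Gpam, which encodes an enzyme of the committed first step, stood above RT in every mouse at every time in the cold. In RT its levels in the 5 mice, in replicate order, were 258, 199.6, 229.6, 215 and 165 CPM. At 6 hours they were 446, 443, 502, 517 and 424 CPM. The 2 groups did not overlap, and the mean rose from 214 ± 34.9 to 466 ± 40.7 CPM (SD, n = 5), a log2 fold change of 1.11 (SE 0.11, adjusted p = 4.8e-07). At 1 day the mice had 470.35, 486, 546, 410.1 and 464 CPM, again clear of RT, with a log2 fold change of 1.15 (SE 0.12, adjusted p = 1.7e-06). Later groups held this level with a shallow dip. Means were 398 ± 65.7 CPM at 2 days, 359 ± 32.3 at 3 days, 435 ± 32.9 at 4 days and 439 ± 38.7 at 5 days. The log2 fold change was lowest at 3 days, at 0.76 (SE 0.12, adjusted p = 1.1e-04), and was 1.04 at 5 days (adjusted p = 1.6e-06). The lowest of the 30 cold mice, at 321 CPM at 3 days, was still above the highest RT mouse, and neighbouring cold groups overlapped throughout. Tissue from a whole pad was sequenced, so fewer cells of a type and less RNA per cell cannot be told apart, here or for the genes that follow.

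Agpat2, whose loss causes a generalized lipodystrophy, rose from 1 day on and stood highest in the last group. RT mice had 1147, 532, 834, 608 and 489.7 CPM, with replicate 1 well above the rest. At 6 hours the mice had 963, 851, 1011, 1159.6 and 939.6 CPM, all above 4 of the 5 RT mice. This did not pass the threshold, with a log2 fold change of 0.43 (SE 0.18, adjusted p = 0.0636). It did so without RT replicate 1, with 0.66 (adjusted p = 0.00105), and with the replicate block, with 0.50 (adjusted p = 0.0159). It also passed with no filter on low counts (0.44, adjusted p = 6.6e-04) and with all 7 groups in 1 fit (0.45, adjusted p = 0.0418). At 1 day every mouse was above every RT mouse, at 1412, 1819, 1615, 1666 and 1494 CPM, and the mean of 1601 ± 157 CPM (SD, n = 5) was a log2 fold change of 1.15 (SE 0.19, adjusted p = 1.6e-04). The group at 1 day was also clear of that at 6 hours, with a log2 fold change between them of 0.71 (SE 0.11, adjusted p = 2.0e-04). Thereafter means were 1668 ± 436 CPM at 2 days, 1788 ± 229.6 at 3 days and 2097 ± 335 at 4 days. They reached 2375 ± 367 CPM at 5 days, where the mice had 2338, 2072, 2800.3, 2694 and 1970.3 CPM and the log2 fold change was 1.71 (SE 0.19, adjusted p = 1.8e-06). Adjacent groups from 1 day on overlapped, while 5 days against 6 hours differed by 1.28 (SE 0.12, adjusted p = 5.5e-08). The last 64 bases of the gene are shared with exons of Egfl7 on the opposite strand, whose group means lay between 36.3 and 59.7 CPM.

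Lpin1, which supplies the phosphatidic acid phosphatase, rose only in the group at 1 day among the 6 cold groups. RT mice had 308, 330.05, 441, 411 and 397 CPM, and the mice at 1 day had 632, 747, 783, 536 and 499.9 CPM. These did not overlap, and the mean went from 377 ± 56.1 to 639.6 ± 125 CPM (SD, n = 5), a log2 fold change of 0.76 (SE 0.14, adjusted p = 5.1e-04). Against 6 hours, the value at 1 day was higher by 0.70 (SE 0.13, adjusted p = 0.00119). At 6 hours the mean was 397 ± 41.5 CPM, with a log2 fold change of 0.05 that has the other sign under library size only. At 2 days the mice spread from 310.3 to 598 CPM. Their log2 fold change of 0.29 did not pass (adjusted p = 0.172), and without cold 2 days replicate 1 it was 0.40 (adjusted p = 0.023). By 4 and 5 days the means were 379 ± 19.4 and 359.6 ± 34.4 CPM, with log2 fold changes of 0.0023 and −0.076, and every mouse lay within the RT range of 308 to 441 CPM.

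Dgat1 and Dgat2 encode unrelated proteins that catalyse the same last step, and they went opposite ways in the cold. For Dgat1, RT mice had 192, 162, 139, 161 and 126 CPM, and the mice at 6 hours had 426, 371, 501, 448 and 542 CPM. The groups were far apart, with means of 156 ± 25.3 and 458 ± 66.1 CPM (SD, n = 5) and a log2 fold change of 1.53 (SE 0.12, adjusted p = 3.0e-08), or 2.89-fold. At 1 day the mice overlapped those at 6 hours, with 400.3, 392, 412, 517 and 548 CPM, and the log2 fold change from RT was 1.54 (SE 0.13, adjusted p = 2.4e-07). It then declined while the cold lasted. At 2 days the mice lay between 284 and 383 CPM, below every mouse at 1 day and above every RT mouse. At 3, 4 and 5 days, means were 225 ± 38.3, 198 ± 11.6 and 218 ± 7.56 CPM. Dgat1 was still higher than RT in these groups, with log2 fold changes of 0.54, 0.34 and 0.48 (adjusted p = 0.00444, 0.0188 and 0.00188), and 5 days against 6 hours differed by −1.05 (SE 0.11, adjusted p = 1.5e-07). The late calls were small enough to turn on the scaling, since with library size only the value was 0.21 at 4 days (adjusted p = 0.15) and 0.25 at 5 days (adjusted p = 0.085). Without RT replicate 5, the value at 4 days was 0.27 (adjusted p = 0.054).

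Dgat2, alone among the 9 genes, was called lower in all 6 comparisons with RT. RT mice had 793, 694, 844, 836 and 709 CPM, and the mice at 6 hours had 424, 297, 534, 395 and 463 CPM. The groups did not overlap, and the mean fell from 775 ± 70.0 to 423 ± 87.5 CPM (SD, n = 5), a log2 fold change of −0.90 (SE 0.13, adjusted p = 1.9e-05). At 1 day the mice had 455, 487, 562, 516 and 373 CPM, and at 5 days 326, 576, 448, 456 and 436 CPM. Both groups lay wholly below RT, with log2 fold changes of −0.70 (SE 0.12, adjusted p = 1.9e-04) and −0.80 (SE 0.13, adjusted p = 9.1e-05). The lowest mean, 342 ± 49.2 CPM, was reached at 4 days, where the log2 fold change was −1.18 (SE 0.11, adjusted p = 4.7e-07). At 2 days the mice were scattered, at 228, 369.5, 581, 746 and 402 CPM, and replicate 4 lay inside the RT range. The value there was −0.75 (SE 0.23, adjusted p = 0.0196), and it missed the threshold without cold 2 days replicate 2 (−0.67, adjusted p = 0.0577) or replicate 5 (−0.69, adjusted p = 0.0511).

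**Figure D1:**
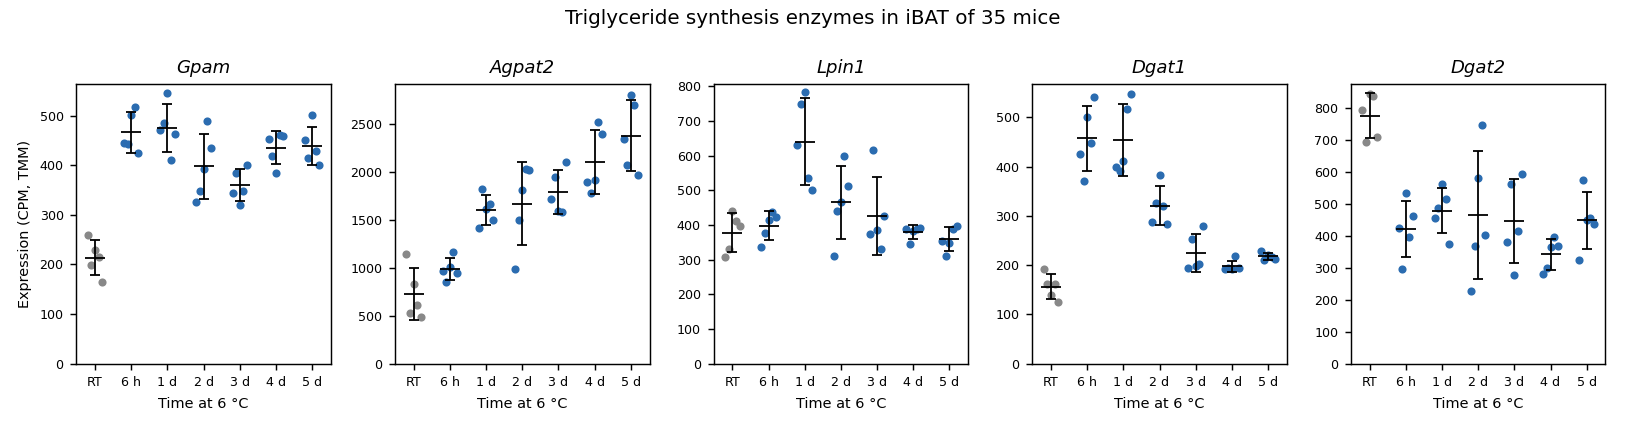
TMM-scaled expression (CPM, linear axes from 0) of the 5 synthesis enzymes in each mouse, RT in grey and times at 6 °C in blue, with group means and SD (n = 5). All 30 cold mice lie above the 5 RT mice for Gpam, Agpat2 climbs to 2375 ± 367 CPM at 5 days, Lpin1 peaks at 1 day, and Dgat1 is up early while Dgat2 is down throughout.

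Because the 2 DGAT transcripts come from the same library, their counts were also set against each other within each mouse, a measure that needs no scaling factor. It was formed after the values above had been seen and is given as a description. The log2 ratio of Dgat1 to Dgat2 counts was −2.32 ± 0.24 (SD, n = 5) in RT, with mice from −2.60 to −2.05. At 6 hours it was 0.13 ± 0.17, from −0.093 to 0.32, so that counts for both genes were about equal, which does not compare their transcript levels. The ratio then drew back in part, with means of −0.078 ± 0.39 at 1 day, −0.43 ± 0.57 at 2 days, −0.95 ± 0.27 at 3 days, −0.78 ± 0.18 at 4 days and −1.02 ± 0.34 at 5 days. Every cold mouse was above every RT mouse, and the lowest of them, at −1.46 at 5 days, stood clear of the highest RT mouse.

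**Figure D2:**
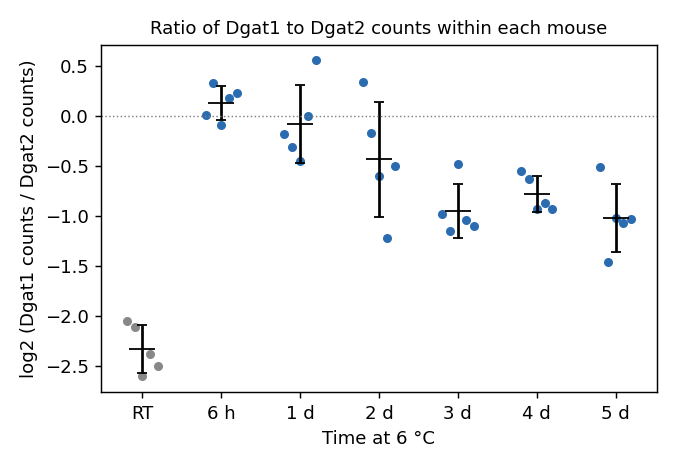
Log2 ratio of Dgat1 counts to Dgat2 counts within each mouse (points), with group means and SD (bars, n = 5), and the dotted line at equal counts. RT mice lie from −2.60 to −2.05, the mice at 6 hours from −0.093 to 0.32, and the mice at 5 days from −1.46 to −0.51.

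Among the genes for droplet formation, Bscl2 (ENSMUSG00000071657, plus strand, chr19:8837467-8848683) showed a modest rise that was first called at 1 day. Seipin sits where the endoplasmic reticulum meets the nascent droplet, and its loss also causes lipodystrophy. RT mice had 91.2 to 161 CPM and the mice at 1 day had 157 to 210.02 CPM, with 4 of 5 above all RT mice and a log2 fold change of 0.61 (SE 0.13, adjusted p = 0.00194). It was also higher at 1 day than at 6 hours, by 0.45 (SE 0.11, adjusted p = 0.00697). The log2 fold change against RT was 0.48 at 2 days (adjusted p = 0.0141), 0.39 at 4 days (adjusted p = 0.0188) and 0.38 at 5 days (adjusted p = 0.0199), and these 3 calls were lost with library size only (0.26, 0.26 and 0.15). The value of 0.35 at 3 days just missed the threshold (adjusted p = 0.0507) and passed it with the replicate block (0.37, adjusted p = 0.046), without mitochondrial genes and Gm42418 (0.35, adjusted p = 0.048), with no filter (0.35, adjusted p = 0.0283) and with all 7 groups in 1 fit (0.34, adjusted p = 0.0159). It also passed without RT replicate 1 (0.46, adjusted p = 0.0118) or cold 3 days replicate 1 (0.40, adjusted p = 0.0441). Without RT replicate 5, the value at 5 days was 0.29 (adjusted p = 0.0562). Exons of AC129217.1 on the same strand and of Gng3 on the opposite strand overlap those of Bscl2, and they had 0 counts in every mouse and at most 6 counts, respectively.

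Fitm2 (ENSMUSG00000048486, minus strand, chr2:163466379-163472629), the FIT gene made in many tissues, rose early and briefly. RT mice had 77.3, 74.97, 75.3, 58.7 and 48.2 CPM, and the mice at 6 hours had 100.1, 109, 117, 103 and 119.6 CPM. Every cold mouse was above every RT mouse, with means of 66.9 ± 12.8 and 109.7 ± 8.66 CPM (SD, n = 5) and a log2 fold change of 0.70 (SE 0.12, adjusted p = 1.8e-04). At 1 day it was 0.49 (SE 0.13, adjusted p = 0.00718), again with no overlap, and with library size only it was 0.28 (adjusted p = 0.108). From 2 days on the log2 fold change was 0.28, 0.15, 0.16 and 0.14 and was not called, and 5 days lay below 6 hours by −0.56 (SE 0.12, adjusted p = 7.3e-04). The sign of the value at 5 days was reversed with library size only. Its exons overlap at the far 5′ side those of 2310001K24Rik on the opposite strand, which had at most 25 counts in any mouse.

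Fitm1 (ENSMUSG00000022215, plus strand, chr14:55575617-55576954), known chiefly from skeletal muscle, was close to undetected in iBAT. It had 85 counts in all 35 mice together, at most 9 in 1 mouse and 0 in 11 mice, where a count of 0 allows up to 3 counts. Group means lay between 0.374 ± 0.44 and 0.654 ± 0.823 CPM (SD, n = 5). Two-sided exact tests that permuted its log2 CPM over every split of 5 against 5 mice gave p from 0.492 to 0.984 in the 8 comparisons. A change of Fitm1 was not detectable at this depth. The mouse with the most counts, cold 1 day replicate 5 with 2.07 CPM, also had the highest skeletal muscle sum of 1236 CPM, while RT replicate 1, with a muscle sum of 1029 CPM, had 0.194 CPM of Fitm1. Over all mice, the 11 with 0 counts had muscle sums of 2.58 to 300 CPM. Mice with 1 to 5 counts had 73.1 to 1029 CPM, and those with at least 6 counts had 410 to 1236 CPM. The part of muscle tissue in the Fitm1 counts was not tested.

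Group means of the CIDE genes spanned 0.44 (Cidea) and 0.57 (Cidec) on the log2 scale under TMM, the smallest ranges among the 9 genes tested, although Cidec was called at 4 of the 6 times. Cidea, a droplet protein typical of brown fat, had 2235 to 2672 CPM in RT, and its group means lay between 2011 ± 196 CPM at 1 day and 2740.5 ± 320.04 CPM at 2 days (SD, n = 5). Under TMM it was called once, as lower at 1 day, where the mice had 1953, 1816, 2298, 1875 and 2114 CPM, 4 of them below all RT mice. That log2 fold change of −0.28 (SE 0.10, adjusted p = 0.0352) missed the threshold in 7 of 10 refits with 1 mouse removed, where it lay between −0.29 and −0.24 (adjusted p = 0.0527 to 0.0974). The same call was lost with no filter on low counts (−0.26, adjusted p = 0.201) and with the replicate block (−0.29, adjusted p = 0.058). The other 5 log2 fold changes against RT were from −0.13 to 0.16. With library size only, Cidea was also called lower at 6 hours (−0.32, adjusted p = 0.00688) and at 3 days (−0.26, adjusted p = 0.0409).

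Cidec (ENSMUSG00000030278, minus strand, chr6:113424634-113435760) encodes a related droplet protein, best known for the single large droplet of white adipocytes, and it fell late. RT mice had 460.05, 454, 425, 449 and 397 CPM. Under TMM the first day brought no call, with log2 fold changes of −0.10 at 6 hours and 0.07 at 1 day. With library size only it was called lower at 6 hours (−0.29, adjusted p = 0.0305), and the sign at 1 day was reversed. At 5 days the mice had 266, 372, 284, 347 and 284 CPM, all below RT, with a log2 fold change of −0.50 (SE 0.11, adjusted p = 0.0014). At 3 and 4 days it was −0.43 (SE 0.13, adjusted p = 0.0147) and −0.42 (SE 0.09, adjusted p = 0.00154). The call at 2 days, −0.29 (SE 0.10, adjusted p = 0.0387), was lost in 5 of 10 refits with 1 mouse removed, which included that without cold 2 days replicate 2 (−0.24, adjusted p = 0.114), with the replicate block (adjusted p = 0.0903), with no filter (adjusted p = 0.192) and with all 7 groups in 1 fit (adjusted p = 0.071).

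**Figure D3:**
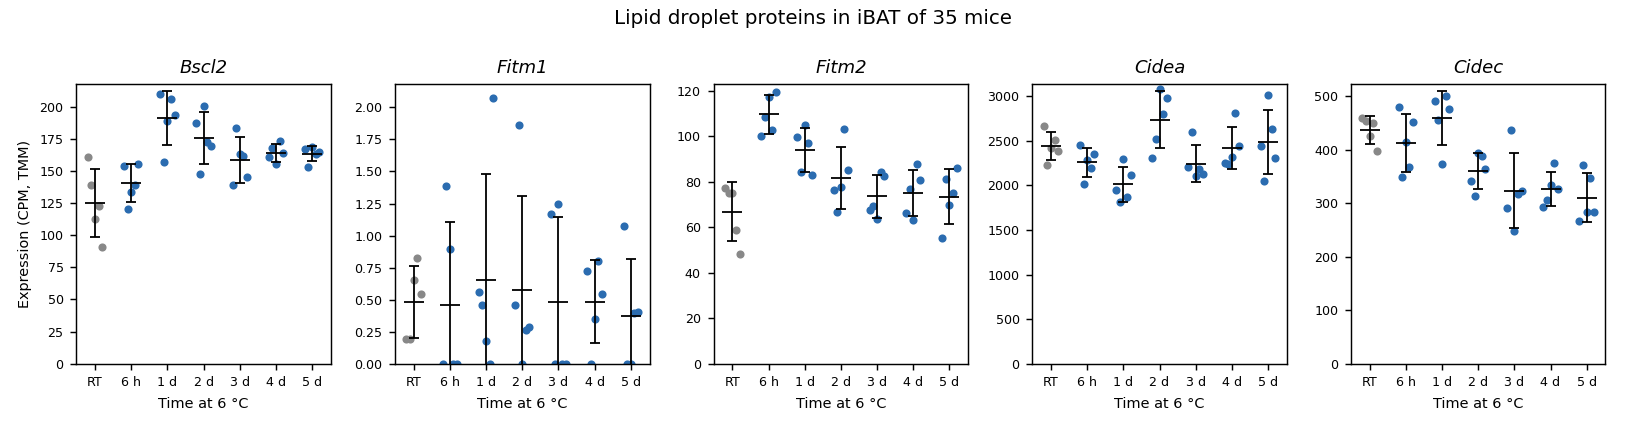
TMM-scaled expression (CPM, linear axes from 0) of the 5 droplet genes in each mouse, RT in grey and times at 6 °C in blue, with group means and SD (n = 5, lower bars stop at 0). Fitm2 stands highest at 6 hours at 109.7 ± 8.66 CPM, Cidec is lowest at 5 days at 311 ± 46.0 CPM, and Fitm1 stays near the level of single reads.

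The order of change was then compared within the cold groups. From 6 hours to 1 day, 3 of the 9 genes were called higher (9.19% of all genes) and 0 lower (7.75% of all genes) by edgeR. These were Agpat2, Lpin1 and Bscl2, whereas Gpam (0.04), Dgat1 (−0.0034) and Dgat2 (0.19) were not called. From 6 hours to 5 days, 1 was higher (19.0% of all genes) and 3 were lower (16.9% of all genes). Agpat2 was the higher gene, and Dgat1, Fitm2 and Cidec, with −0.39 (SE 0.12, adjusted p = 0.0119), were lower. Both comparisons use the same 5 mice at 6 hours.

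**Figure D4:**
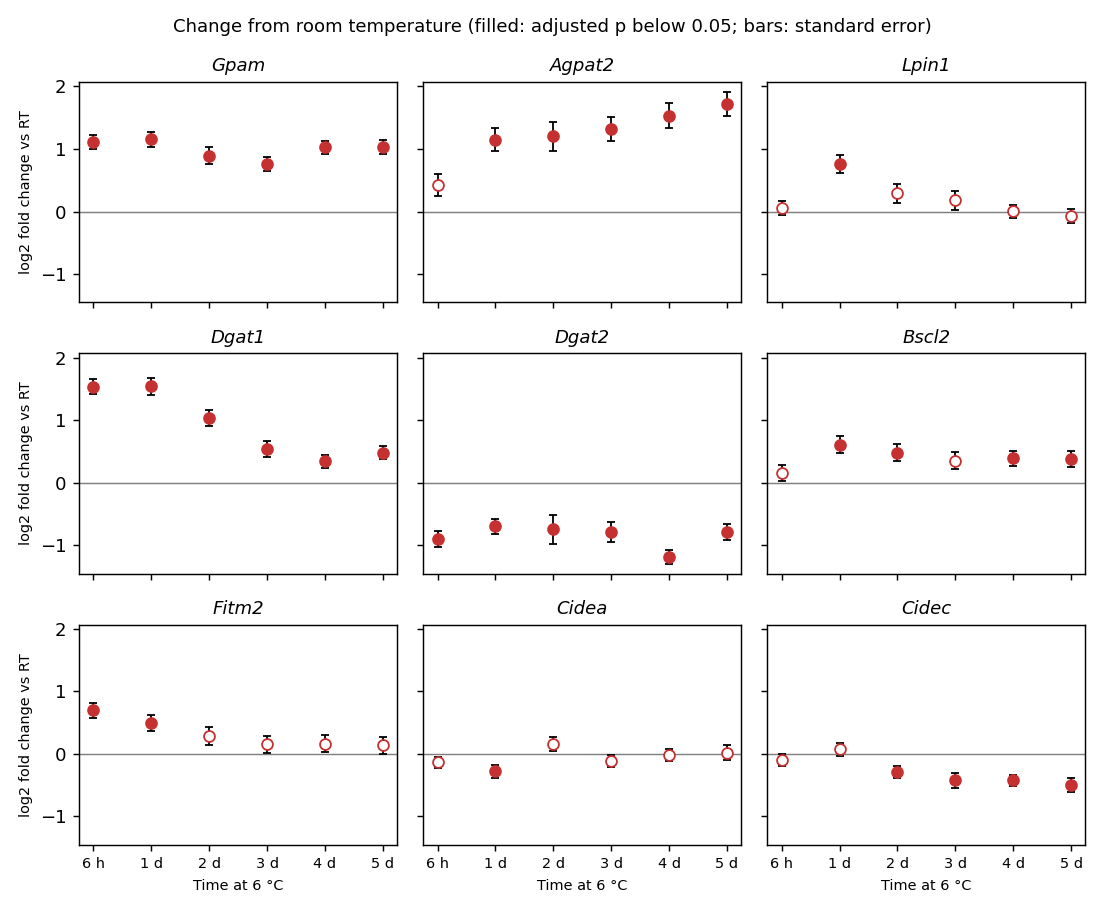
Log2 fold change from RT (vertical axis) against time at 6 °C for the 9 genes tested, with SEs as bars and filled points at an adjusted p under the threshold. Gpam and Dgat2 are filled at all 6 times on opposite sides of 0, Agpat2 ascends from 0.43 to 1.71, Dgat1 descends from 1.53 to 0.48, and Cidea stays between −0.28 and 0.16.

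Summed levels of cell type markers also differed between groups. The summed level of 4 endothelial markers was 229 to 281 CPM in RT, 394 to 487 CPM at 6 hours and 457 to 539 CPM at 1 day, both clear of RT, and 202 to 352 CPM at 5 days. That of 4 white adipocyte markers was 129 to 193 CPM in RT, 209 to 306 CPM at 6 hours and 209 to 500 CPM at 1 day. The 8 brown adipocyte markers summed to 11554 to 15482 CPM in RT and to 16383 to 22797 CPM at 6 hours. Fabp4 and Ucp1 weigh most in that sum, with up to 10377 and 9116 CPM in a mouse, while no other marker of the list exceeded 1628 CPM. The paper lists Ucp1 among the genes induced within 6 hours of cold, so the sum does not measure the number of brown adipocytes. The 6 macrophage markers summed to 59.8 to 135 CPM in RT and, with some overlap, to 111 to 251.6 CPM at 3 days, and 4 stromal progenitor markers went from 61.4 to 80.2 CPM in RT to 91.2 to 193 CPM at 3 days. The 4 erythroid markers summed to 1818 to 2332 CPM in RT, to 2488 to 4490.4 CPM at 1 day and to 2688 to 4984 CPM at 5 days, both clear of RT, and overlapped RT at the other 4 times. Other sums also leaned on single genes, with up to 405 CPM in a mouse for Npr3 (white adipocyte) and 365 for Kdr (endothelial). Ly6a (stromal progenitor) had up to 155, Lyz2 (macrophage) up to 127 and Hbb-bs (erythroid) up to 3371 CPM. A sum need not stand for a change in all its markers. All markers of these 6 lists had counts in each group, and their part in the results for the triglyceride genes was not tested.

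The wider pathway was covered by 42 further genes in 6 lists, of which 38 or 39 could be tested. The lists were chosen with earlier results of these data known, so their counts describe the listed genes and do not test a class of genes. At 6 hours 16 were called higher and 8 lower, at 1 day 15 and 8, at 2 days 14 and 5, at 3 days 15 and 9, at 4 days 14 and 11, and at 5 days 16 and 8. Of all genes tested, 21.5% were higher and 21.0% lower at 6 hours, 18.9% and 17.8% at 1 day, and 16.4% and 14.7% at 2 days. The shares were 18.3% and 15.5% at 3 days, 19.4% and 18.6% at 4 days, and 20.2% and 18.6% at 5 days, the background for the lists that follow. The median log2 fold change of the pathway genes lay between 0.053 at 3 days and 0.33 at 1 day. With library size only, 13, 14 and 13 were called lower at 2, 3 and 5 days. Of all genes, 2776 of 10629, 2430 of 10827 and 3347 of 10733 were then called lower.

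In the list for substrate supply, more genes were called higher than lower. Of 8 tested in this list of 9, 6 were called higher and 1 lower at 6 hours, and 5 higher and 1 lower at 5 days. Gk, the glycerol kinase that turns free glycerol back into glycerol-3-phosphate, rose most at first, with a log2 fold change of 2.62 at 6 hours (SE 0.24, adjusted p = 1.3e-07) and 1.63 at 5 days (SE 0.24, adjusted p = 3.4e-05). Gpd1, which makes the same molecule from a glycolytic intermediate, went from 0.46 (adjusted p = 0.0165) to 1.35 (adjusted p = 4.9e-06) over these times. The first of these calls was lost with library size only (0.27, adjusted p = 0.112) and with all 7 groups in 1 fit (0.48, adjusted p = 0.0542). Acsl5, an acyl-CoA synthetase that activates fatty acids, rose from 50.2 ± 22.6 CPM in RT to 148 ± 63.1 at 6 hours and 641 ± 150.1 at 5 days (SD, n = 5), the latter a log2 fold change of 3.67 (SE 0.25, adjusted p = 5.1e-09). Its relative Acsl3 was lower at 6 hours (−0.76, adjusted p = 2.0e-04) and higher at 5 days (1.15, adjusted p = 1.7e-04). Acsl6 had at most 3 counts and was not tested.

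Isoenzymes of the acyl transfer steps were called higher more than lower. In this list 4 of 6 tested were higher and 0 lower at 6 hours, and 4 of 7 were higher and 1 lower at 5 days. Agpat1, which catalyses the same step as Agpat2, had its largest log2 fold change, 1.08, at 2 days (SE 0.13, adjusted p = 1.6e-05). The isoenzymes of the first step did not follow Gpam throughout. Gpat4 had 221 ± 43.1 CPM in RT, 275 ± 82.3 at 1 day, 140 ± 33.0 at 3 days and 154 ± 9.48 at 5 days (SD, n = 5). Gpat3 had 12.9 ± 3.39 CPM in RT, 25.3 ± 4.38 at 6 hours and 10.3 ± 1.64 at 5 days. Mogat1, which acylates monoacylglycerol, had 4 to 15 counts per mouse in RT and 39 at most. It passed the filter only from 3 days on, where its level was higher, and enters the counts of those times. It was higher at 5 days by 1.61 (SE 0.35, adjusted p = 0.00139). Its call at 3 days, at 0.94, was lost in 8 of 10 refits with 1 mouse removed. The same call was lost with library size only (adjusted p = 0.0777), no filter (adjusted p = 0.117) and DESeq2 (adjusted p = 0.0746). It was also lost with all 7 groups in 1 fit (adjusted p = 0.0628) and with the replicate block (adjusted p = 0.065). Gpat2 and Mogat2 had at most 4 and 2 counts and were not tested. Of the 2 other lipins, Lpin2 was called from 3 days on and reached 21.8 ± 0.899 CPM at 5 days against 10.4 ± 1.87 in RT (SD, n = 5), a log2 fold change of 1.07 (SE 0.14, adjusted p = 1.4e-05).

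Of 12 genes for droplet coats and caveolae, 3 were higher and 3 lower at 6 hours, near the 21.5% and 21.0% of all genes. At 1 day 2 were higher and 5 lower (18.9% and 17.8% of all genes), and at 2 days 2 and 4 (16.4% and 14.7%). At 3 days 1 was higher and 5 lower (18.3% and 15.5%), and at 4 days 1 and 6 (19.4% and 18.6%). At 5 days 2 were higher and 4 lower (20.2% and 18.6% of all genes). Plin2, a perilipin that coats droplets in most cells, rose from 253 ± 64.2 CPM in RT to 471 ± 56.2 at 6 hours and 888 ± 63.3 at 1 day (SD, n = 5), and its log2 fold change was 2.51 at 5 days (SE 0.15, adjusted p = 1.9e-09). Plin4, another perilipin, was lower from 1 day on, with −1.16 at 3 days (SE 0.12, adjusted p = 1.5e-06), and with library size only also at 6 hours (−0.44, adjusted p = 0.00956). Cavin1, needed for caveolae, was lower at all 6 times and by −1.18 at 5 days (SE 0.15, adjusted p = 9.1e-06). Tmem159, which encodes a partner of seipin, was lower at all 6 times, with 5.65 ± 0.969 CPM in RT and 1.78 ± 0.412 at 2 days, a log2 fold change of −1.63 (SE 0.26, adjusted p = 2.1e-04). These levels rest on few reads, with 24 to 44 counts per mouse in RT and 4 to 14 at 2 days. Its call at 6 hours, at −0.67, was lost in 6 of 10 refits with 1 mouse removed, in that without cold 6 hours replicate 1 with −0.51 (adjusted p = 0.0985), and also with no filter (adjusted p = 0.0929), with DESeq2 (adjusted p = 0.083) and with all 7 groups in 1 fit (adjusted p = 0.0933). Its call at 5 days was lost without RT replicate 4 (−0.87, adjusted p = 0.0525).

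Of the 4 genes for lipolysis, 1 was called higher and 1 lower at 6 hours, and 2 were higher and 0 lower at 5 days. With so few genes, the counts at 6 hours are near the background of 21.5% and 21.0%. Abhd5, the coactivator of adipose triglyceride lipase, was the higher gene at 6 hours, with 61.2 ± 14.2 CPM in RT and 126 ± 8.73 at 6 hours (SD, n = 5) and a log2 fold change of 1.02 (SE 0.13, adjusted p = 7.4e-06). Among 6 regulators, 2 were higher and 3 lower at 6 hours, and 2 and 2 at 5 days. Ppargc1a, a coactivator of oxidative genes, was higher by 3.62 at 6 hours (SE 0.22, adjusted p = 1.2e-09). Srebf1, a driver of lipid synthesis genes, fell from 66.1 ± 8.15 to 19.2 ± 4.04 CPM at 6 hours, a log2 fold change of −1.80 (SE 0.14, adjusted p = 2.9e-08), and was at −0.38 at 1 day (adjusted p = 0.279). It was not called at 2 and 3 days (−0.26 and −0.24), and was lower again at 4 days (−0.54, adjusted p = 0.00578) and 5 days (−0.63, adjusted p = 4.3e-04). With library size only it was also called lower at 2 days (−0.50, adjusted p = 0.00873) and 3 days (−0.39, adjusted p = 0.0179). Cebpa, a factor of adipocyte differentiation, was lower at all 6 times, most at 6 hours with −1.26 (SE 0.11, adjusted p = 1.1e-07).

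**Figure D5:**
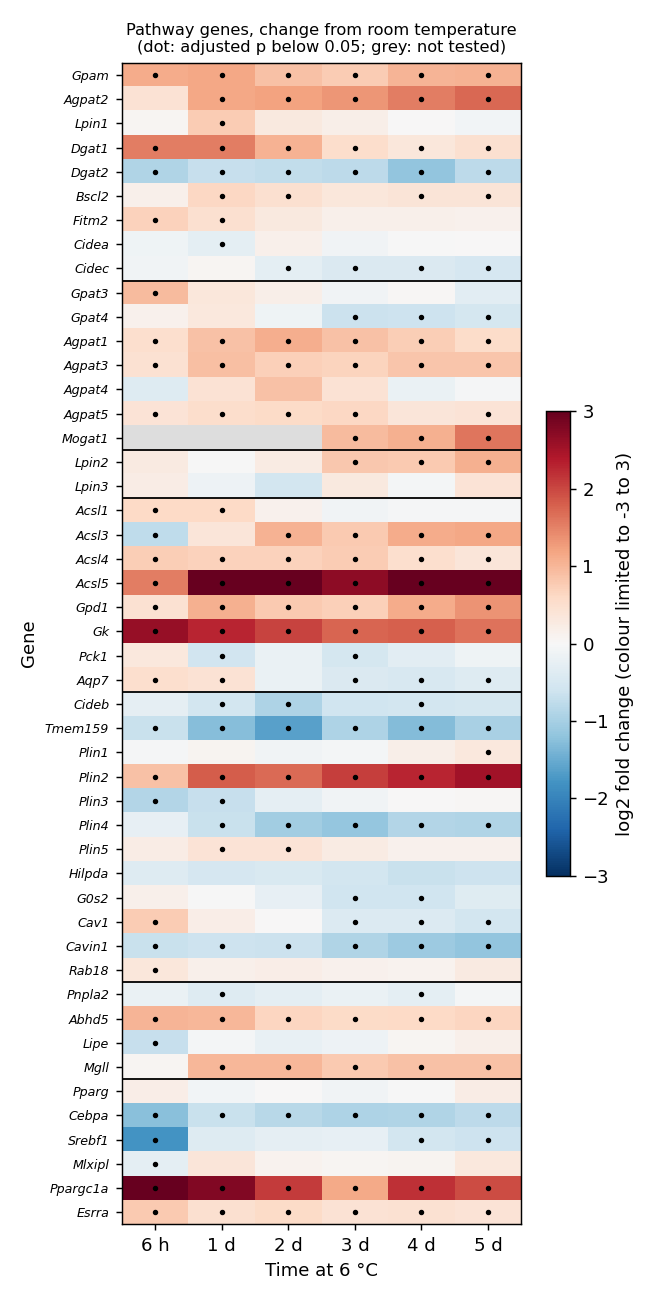
Log2 fold change from RT (colour, limited to −3 to 3) for the 9 triglyceride genes tested and the pathway genes tested (rows, in their lists) at each time at 6 °C (columns), with a dot for each call and grey where a gene was not tested. Acsl5, Gk, Plin2 and Ppargc1a are the darkest red, and Srebf1 at 6 hours is the darkest blue at −1.80.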

How the data were processed

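According to the study's methods and the submitters' processing notes, RNA from 1 iBAT pad per mouse was made into QuantSeq 3′ FWD libraries, reads were aligned to GRCm38 with STAR 2.6.1d and counted per Ensembl gene with HTSeq 0.11.2. The strand setting of HTSeq is not given in the sources used here, so reads from a gene and its antisense partner may not be separated. The authors deposited these counts as 1 table of whole numbers per gene and mouse, not normalized. Its 35 columns were matched to mice by group and replicate number in the labels, 267 of 55421 identifiers had no symbol, and 0 columns were left unused. No libraries agreed within sampling noise, since chi-square per gene between mice of a group was 5.04 to 26.8.

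From the counts, each pair of groups was fitted on its own with edgeR 4.0.16 in R 4.3.3, using TMM factors, filterByExpr and quasi-likelihood tests, with p adjusted by Benjamini-Hochberg over all genes tested and a threshold of 0.05. SE is the log2 fold change divided by the root of F. CPM used TMM factors over all 35 mice, and log2 CPM a prior count of 2. Fitm1, below the filter, was tested by exact permutation. The 10 genes, the pathway lists and the marker lists were chosen with earlier results of these data known. All 10 genes are named, and pathway genes only where called against RT with an absolute log2 fold change of at least 1, or where not tested. Gpat3 and Gpat4 are named besides, for their levels. Alternatives were RLE size factors, library size only, counts without mitochondrial genes and Gm42418, no filter, DESeq2 1.42.0, 1 fit of all 7 groups, the replicate number as a block and the removal of each mouse. The fit of 6 hours against RT was tested on simulated counts, with 7 false calls by edgeR. It recovered 167 of the 185 genes that were changed by known folds and passed its filter. The changed genes were few and balanced between higher and lower, so the dependence on scaling was not tested there. They were changed by at least 2-fold, so the recovery of smaller changes was not tested either. Sequences are from RefSeq and gene positions from GENCODE. The single-cell and imaging data of the study were not analysed here.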

Additional observations from a re-analysis of the deposited data

Results flagged for a closer look

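Groups of 5 mice were screened for a single mouse whose gap to its nearest neighbour exceeded 0.71 of the log2 range of the group, the critical value of Dixon's test. Of 63 combinations of a gene and a group, 3 held such a mouse, and chance alone gives about 1 in 20. Lpin1 was lowest in cold 4 days replicate 2, at 345 CPM, while the other 4 mice had 383 to 389.8 CPM. Dgat1 was highest in cold 4 days replicate 4, at 218 CPM against 191 to 194 CPM. Cidea was highest in cold 3 days replicate 2, at 2605 CPM against 2109 to 2206 CPM. No call against RT for these genes at these times changed when that mouse was left out.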

How the results depend on the processing

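Each gene in each comparison was recomputed under 7 alternatives and without each mouse in turn. Of 72 results for the 9 genes tested, 45 kept their direction and their side of the threshold throughout, and of 42 called, 33 did. With library size only, 3 of the 9 triglyceride genes were lower at 6 hours, where 3399 of all 10593 genes were. At 4 and at 5 days 2 were higher, where 1440 of all 11048 and 1194 of all 10733 genes were. Pathway genes called lower at 2, 3 and 5 days numbered 13, 14 and 13. Of all genes, 2776 of 10629, 2430 of 10827 and 3347 of 10733 were lower at these times. The sign then changed, none of them called, for Lpin1 (−0.14) and Bscl2 (−0.037) at 6 hours, Cidec at 1 day (−0.14), Cidea at 2 days (−0.081), Lpin1 at 4 days (−0.13), and Fitm2 (−0.096) and Cidea (−0.22) at 5 days. With no filter 1 triglyceride gene was lower at 1 day and 1 at 2 days, where 1953 of all 28041 and 1650 of all 27622 genes were. With all 7 groups in 1 fit 1 was lower at 2 days, where 1635 of all 12077 genes were. Lpin2 at 1 day was 0.0095 with no filter and 0.011 with DESeq2, and Cidea at 4 days was 0.014 and 0.0042. DESeq2 called 2 of the triglyceride genes higher between 6 hours and 5 days, where 2020 of all 15417 genes were. Cidea missed the threshold for any difference among groups with no filter (adjusted p = 0.0834). The cause of these shifts was not tested.

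Without 1 mouse, the triglyceride genes called lower numbered 1 to 2 at 1 day and 0 to 2 at 2 days, those higher from 6 hours to 5 days 1 to 2, and pathway genes lower 5 to 7 at 1 day and 2 to 5 from 6 hours to 1 day. In these refits, from 1636 of 10849 to 1866 of 10950 of all genes were lower at 1 day. At 2 days from 1277 of 10827 to 1625 of 10812 were lower, and from 6 hours to 1 day from 583 of 10387 to 744 of 10360. From 6 hours to 5 days, between 1733 of 10448 and 1909 of 10532 were higher. Uncalled values crossed 0 for Lpin1 at 6 hours (−0.0082 to 0.12) and 4 days (−0.065 to 0.066), Cidea at 4 days (−0.063 to 0.028) and 5 days (−0.048 to 0.090), and Lpin2 at 1 day (−0.10 to 0.064). Between 6 hours and 1 day they did for Gpam (−0.020 to 0.086), Dgat1 (−0.078 to 0.063), Abhd5 (−0.093 to 0.023) and Cavin1 (−0.082 to 0.12), and between 6 hours and 5 days for Dgat2 (−0.0049 to 0.198) and Agpat1 (−0.037 to 0.15).

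Replicate numbers were checked for pairing. Deviations of same-numbered mice from their group means correlated between −0.37 and 0.43, and in no pair of groups were all 5 correlations above 0.1. All were positive between 2 and 4 days (0.029 to 0.43) and between 2 and 5 days (0.0030 to 0.38). The numbers were not used as pairs in the main fits, and whether mice of the same number were handled together is not stated. With the replicate block, 1 triglyceride gene was lower at 1 day and 1 at 2 days, where 1767 of all 10658 and 1332 of all 10629 genes were. Beyond the values given beside Agpat2, Bscl2, Cidea and Cidec, no call for the triglyceride genes changed. One read is worth up to 0.289 TMM-scaled CPM, in cold 2 days replicate 5, which limits Fitm1, Gpat2, Mogat1, Mogat2, Acsl6 and Tmem159.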

Other observations

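For the 4 genes whose group means spanned at least 1 on the log2 scale, the genes with the most similar course were searched among 6162 genes with a symbol and a mean of at least 50 counts. Likeness was the root mean square difference of log2 CPM, each gene centred on its mean, over the 35 mice. For Gpam the closest was Ndufaf4, an assembly factor of respiratory complex I, with a difference of 0.132, followed by Kcnk3 (0.163) and Zfp106 (0.179), where the spread of Gpam itself was 0.404. For Agpat2 they were Letm1 (0.199), Mpc2, a subunit of the mitochondrial pyruvate carrier (0.226), and Pfkl, a phosphofructokinase of glycolysis (0.237), against 0.640 for Agpat2 itself. For Dgat1 they were Pde4d, a phosphodiesterase that breaks down cyclic AMP (0.248), Clstn3 (0.254) and Tuba4a (0.264), against 0.582. For Dgat2 they were Hmgn5 (0.293), Myo5c (0.296) and Gtf2i (0.303), against 0.469, so that the course of Dgat2 was matched least closely in proportion to its own spread. These genes were picked by likeness over the same mice, and the values are a description.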
